A study of Mus musculus with 4 samples.

Results

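A set of 8 genes linked to type 17 immunity were followed in single liver cells sorted as CD4+ T cells from mice on a steatohepatitis diet. They were the cytokines Il17a, Il17f and Il22, the cytokine receptors Il23r and Il1r1, the nuclear receptor Rora and the paired membrane protein genes Tmem176a and Tmem176b. These 8 members were chosen by name, and all were found among the 32285 genes of the 2 count matrices. Each genotype was measured in 1 droplet library of 5′ transcript counts with a matched library of T cell receptor contigs, prepared from cells pooled from 2 male mice. The wild-type group (WT) and the knockout group (dKO, Nr4a1 and Nr4a2 floxed on both alleles and deleted by Cd4-Cre, which is active in T cells from thymic development on) had both been fed for 8 weeks a diet without added choline, with 60 kcal% fat and 0.1% methionine. The age of these mice is not given in the sources used here, nor whether the WT mice carried the floxed alleles. With 1 library per genotype there was no replicate and no test, so genotype, mouse, cell preparation and sequencing cannot be told apart.

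After filtering, 10556 WT cells with 23437516 unique molecular identifiers (UMIs, 1 per captured transcript) and 17462 dKO cells with 37794986 UMIs remained. Nr4a1 stood at 725 CPM (the gene's UMIs scaled to the same total of UMIs in every group of cells) in the WT library and at 1659 CPM in the dKO library, and Nr4a2 at 183 and 306 CPM. Both targeted genes were thus higher in the library labelled dKO, also in cells with a receptor contig and Cd3e (712 and 1756 CPM for Nr4a1), and which exons the floxed alleles remove was not assessed here. WT and dKO therefore stand below for the library labelled WT and the library labelled dKO, and no direction between them is attributed to the deletion. The libraries shared 242 cell barcodes. In many sorted cells 2 features of T cells were not found: 3341 of the WT cells and 5855 of the dKO cells had neither a receptor contig nor a Cd3e UMI. Part of these lay in clusters of T cells, with 976 WT and 824 dKO cells in cluster 0 and 111 and 863 in cluster 1, so the lack of both does not mark a cell as another type.

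Type 17 cells defend barriers against extracellular bacteria and fungi. Among CD4+ T cells they are the Th17 cells, which are instructed by IL-1 and IL-23 and secrete IL-17A, IL-17F and IL-22. Innate relatives, the group 3 innate lymphoid cells (ILC3) and lymphoid tissue inducer (LTi) cells, use the same receptors and cytokines but have no rearranged T cell receptor and no surface CD3. Some gamma-delta T cells and invariant natural killer T (iNKT) cells also make IL-17. A transcript of this program alone therefore does not tell a Th17 cell from an innate cell, and each member was read together with 2 receptor features. The first was a productive contig of the TCR alpha or beta chain under the same barcode, and the second was at least 1 UMI of Cd3e, a chain of the CD3 complex that carries the receptor. Cells with both numbered 3163 and 4143 in the WT and dKO libraries, cells with a contig but no Cd3e 678 and 754, cells with Cd3e but no contig 3374 and 6710, and cells with neither 3341 and 5855. Their median depths were 2350 and 1823 UMIs with both, 1548 and 1348.5 with a contig only, 1626 and 1394.5 with Cd3e only, and 1201 and 2346 with neither. Neither feature was free of background. In cluster 2, led by genes of plasmacytoid dendritic cells, a Cd3e UMI was found in 14.9% of WT and 17.99% of dKO cells and a contig in 7.76% and 6.98%, at median depths of 1654 and 3048 UMIs. In cluster 4, led by myeloid genes, Cd3e was found in 39.9% and 39.02% and a contig in 19.6% and 15.1%, at 1840 and 2574 UMIs. The parts of free RNA and of doublets in these shares, and so in the cells with Cd3e but no contig, were not tested. Missing contigs were common among cells with Cd3e, since only 48.4% of WT and 38.2% of dKO cells with Cd3e had a contig.

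In the GRCm38 annotation Il17a lies at chr1:20730905-20734496 on the plus strand, and Il17f at chr1:20777146-20790617 on the minus strand, 42.6 kb apart. Il22 lies at chr10:118204942-118210047, Il23r at chr6:67422932-67491855, Il1r1 at chr1:40225080-40317257 and Rora at chr9:68653786-69388246. Tmem176a (chr6:48840919-48847071, plus strand) and Tmem176b (chr6:48833818-48841496, minus strand) start head to head and share 578 bases. Whether counting used the strand is not given in the sources used here, so reads in that stretch could have been credited to either gene, as could reads where Gm15511 lies antisense within Rora. The promoter windows of RefSeq (GRCm38.p6, 250 bases before to 50 after the start) were searched on both strands for AGGTCA, the half-site bound by ROR nuclear receptors such as the product of Rora, and for TTCNNNGAA, a STAT motif. The 8 members have 12 such windows, since some have several starts. AGGTCA was present in 3 of the 12 windows, each of another member, against 16.3% of all 32851 windows of the same length, and TTCNNNGAA in 0 of 12, against 8.3%. The 3 windows with a match are printed because they belong to the pair of cytokines that were found in the same cells and to the receptor found with them, and the window of Il22, which was found mostly in other cells in the WT library, is set beside them. Capitals mark AGGTCA or its reverse complement, and the windows are chr1:20730655-20730954 (plus strand), chr1:20784221-20784520 (minus), chr6:67491806-67492105 (minus) and chr10:118204714-118205013 (plus).
Il17a: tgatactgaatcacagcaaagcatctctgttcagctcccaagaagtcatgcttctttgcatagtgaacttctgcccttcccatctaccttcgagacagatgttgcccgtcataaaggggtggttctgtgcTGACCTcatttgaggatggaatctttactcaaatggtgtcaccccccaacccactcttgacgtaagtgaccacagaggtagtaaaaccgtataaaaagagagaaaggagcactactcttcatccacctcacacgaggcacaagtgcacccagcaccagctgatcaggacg
Il17f: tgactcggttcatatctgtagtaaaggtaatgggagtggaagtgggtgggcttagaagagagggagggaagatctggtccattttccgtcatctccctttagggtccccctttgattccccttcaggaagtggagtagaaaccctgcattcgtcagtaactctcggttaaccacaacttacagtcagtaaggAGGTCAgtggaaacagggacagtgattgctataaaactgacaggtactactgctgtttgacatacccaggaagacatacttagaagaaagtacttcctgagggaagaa
Il23r: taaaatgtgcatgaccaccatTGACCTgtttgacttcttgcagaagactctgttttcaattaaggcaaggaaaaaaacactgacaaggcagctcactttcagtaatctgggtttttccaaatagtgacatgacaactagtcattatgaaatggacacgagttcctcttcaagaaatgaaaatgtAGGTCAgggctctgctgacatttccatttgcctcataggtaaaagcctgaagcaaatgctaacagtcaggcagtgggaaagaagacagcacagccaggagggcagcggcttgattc
Il22: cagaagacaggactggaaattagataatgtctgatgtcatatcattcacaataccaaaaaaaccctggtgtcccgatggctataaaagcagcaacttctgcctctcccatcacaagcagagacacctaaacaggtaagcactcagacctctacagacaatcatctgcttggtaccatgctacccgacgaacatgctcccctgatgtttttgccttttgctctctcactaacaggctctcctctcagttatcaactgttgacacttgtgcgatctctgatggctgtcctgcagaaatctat
The match began 120 bases before the start of Il17a, 58 bases before that of Il17f, and 229 and 66 bases before that of Il23r. These starts are RefSeq's. That of Il17f lies 6347 bases inside the gene as annotated above, that of Il22 lies 22 bases inside, and those of Il17a and Il23r are the annotated starts. A match of 6 letters is a description of the window, not a binding site.

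Il17a, the signature Th17 cytokine, was found almost entirely in cells with a contig or a CD3 transcript in both libraries. It was detected in 239 WT and 448 dKO cells. A contig was present in 119 of the WT cells (49.8%, 95% Clopper-Pearson interval 43.3 to 56.3%) and in 226 of the dKO cells (50.4%, 45.7 to 55.2%). Of the others, 114 WT and 217 dKO cells had a UMI of Cd3d, Cd3e or Cd3g, which left 6 WT cells (2.51%) and 5 dKO cells (1.12%) with no contig and no CD3 transcript. Among all cells of the library, whatever they expressed, 19.4% in the WT and 22.7% in the dKO library had neither. Those few Il17a cells held 0.849% of the Il17a UMIs of the WT library and 0.443% of those of the dKO library. Trdc, the constant region of the delta chain, had a UMI in 2 of the 120 WT (1.67%) and 11 of the 222 dKO Il17a cells (4.95%) without a contig. With a contig, it was found in 0 of 119 WT and 3 of 226 dKO Il17a cells (1.33%). Among all cells Trdc was found in 0.294% (WT) and 0.412% (dKO), and in cells with Cd3e but no contig in 0.326% and 0.522%. Which of these Il17a cells were gamma-delta T cells was not tested. All intervals here and below cover counting error only, and reads of free RNA in the droplets are part of every count.

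Il17f, the closest relative of Il17a, followed it. Of 103 WT and 274 dKO cells with an Il17f UMI, 47.6% and 55.5% had a contig, and 8 WT cells (7.77%) and 13 dKO cells (4.74%) had neither a contig nor a CD3 transcript. Il22, a cytokine of the IL-10 family that acts on epithelial cells and hepatocytes, was placed otherwise. Only 10 of its 54 WT cells had a contig (18.5%, 9.25 to 31.4%), while 29 (53.7%) had neither a contig nor a CD3 transcript, and these 29 cells held 71.0% of the 314 Il22 UMIs. This share of cells lay above the 19.4% of all WT cells with neither. Among 77 dKO Il22 cells, 38 had a contig (49.4%, 37.8 to 61.0%), and the 10 cells (12.99%) without contig or CD3 transcripts held 36.4% of 247 UMIs. This share of cells lay below the 22.7% of all dKO cells. Most Il22 UMIs of the WT library thus lay in cells with no contig and no CD3 transcript, and those of the dKO library were spread over cells with and without them.

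**Figure D1:**
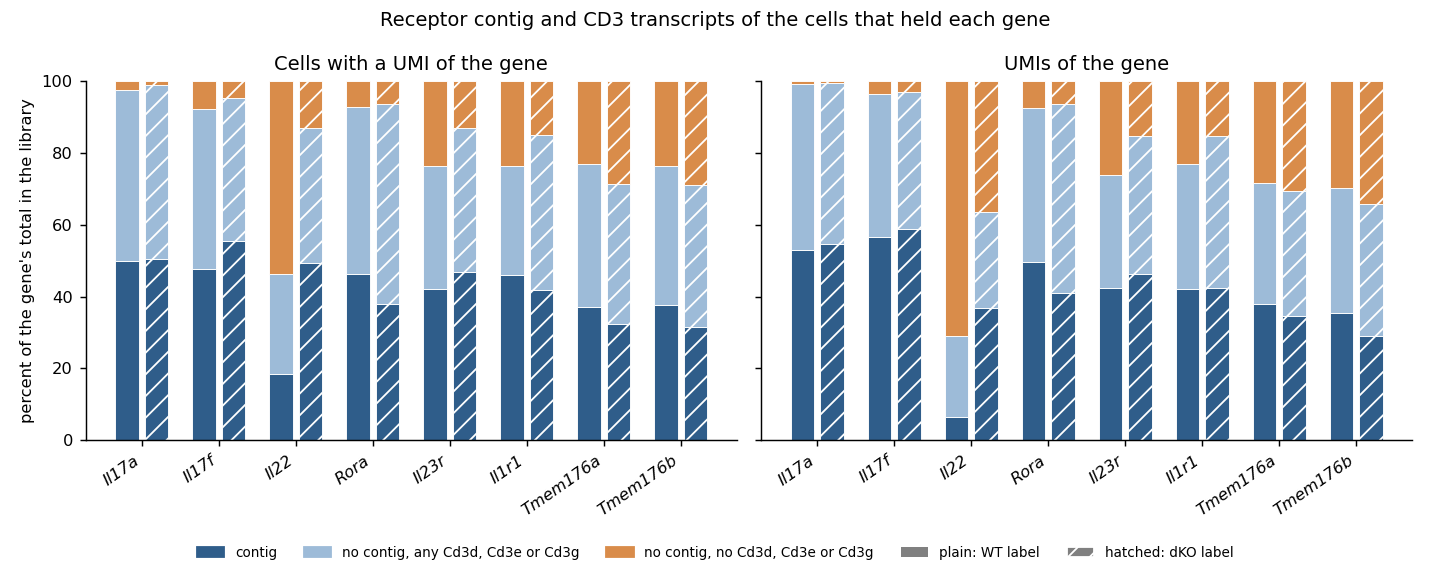
For each gene, bars show the percentage of its positive cells (left) and of its UMIs (right) in cells with a receptor contig, in cells without a contig but with a Cd3d, Cd3e or Cd3g UMI, and in cells with neither, plain for the WT label and hatched for the dKO label. Il22 in the WT library has 53.7% of its cells and 71.0% of its UMIs in cells with no contig and no CD3 transcript, whereas the corresponding Il17a bars are 2.51% and 0.849%.

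The level of Il17a was 92.9 CPM (95% exact Poisson interval 86.8 to 99.3) in WT cells with contig and Cd3e, 109 CPM with a contig only, 107 CPM with Cd3e only and 18.1 CPM (14.7 to 22.001) with neither. The same dKO classes stood at 224 CPM (215 to 233), 249, 153 and 17.2 CPM (15.1 to 19.5). Cells with neither feature were lowest in both libraries, at log2 differences of -2.36 and -3.70 from cells with both. The size depended on the definition, from -1.66 to -4.45 in the WT and from -2.90 to -6.89 in the dKO library over the settings planned at the start, farthest when any of Cd3d, Cd3e or Cd3g was counted and nearest with the mean of each cell's CPM. Il17f stood at 23.9 CPM in WT cells with both features and 5.20 CPM with neither, and at 52.8 and 6.65 CPM in the dKO library. Few cells carried these transcripts: 102 of 3163 WT cells with contig and Cd3e had an Il17a UMI (3.22%), as did 198 of 4143 dKO cells (4.78%). The 10 highest cells held 45.4% of the Il17a UMIs of that class in the WT library and 26.1% in the dKO library, so the level rests on few cells. With cells of all classes counted, Il17a was detected in 0.667% of WT and 0.708% of dKO cells of cluster 2. In cluster 4 it was detected in 1.03% and 0.982%. In cluster 3 (led by Igfbp4, Lef1 and Ccr7) it was detected in 0.172% of the WT cells. None of the 553 dKO cells of cluster 3 had it, which allows a share of up to 0.542%. Part of the cluster 2 cells had a contig, 3 of the 11 WT and 14 of the 29 dKO cells with Il17a, and among its cells with neither feature the shares were 0.365% and 0.0606%. The 0.868% of WT and 0.632% of dKO cells with neither feature that had an Il17a UMI were 29 and 37 cells. Of these, 6 WT and 5 dKO cells had no Cd3d or Cd3g UMI either. With each cell thinned to 1000 UMIs, Il17a was found in 0 of 957 WT and 0 of 3277 dKO cluster 2 cells with neither feature. In cluster 4 outside the small cluster described below it was found in 0 of 204 and 0 of 345. In the remaining clusters it was found in 1.04% of 962 WT and 2.19% of 1139 dKO cells with neither feature. The part of free RNA in these counts was not tested.

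Il22 had the opposite arrangement in the WT library. It stood at 1.93 CPM (1.14 to 3.05, 18 UMIs in 8 cells) in WT cells with contig and Cd3e and at 45.9 CPM (40.4 to 51.9, 256 UMIs in 35 cells) in cells with neither, a log2 difference of 4.57 (3.88 to 5.35). In the dKO library Il22 stood at 7.52 CPM (5.92 to 9.41) with both and 7.09 CPM (5.75 to 8.64) with neither, a log2 difference of -0.08 (-0.53 to 0.37) whose interval includes 0. Both levels with neither feature rest on few cells. In the WT library the 10 highest of the 35 cells held 69.1% of the UMIs and 1 cell held 58 of the 256, and in the dKO library 13 cells held all 98 UMIs and 1 cell held 40 of them. By cells, Il22 was found in 0.222% of dKO cells with neither feature against 0.748% with both, and in 1.05% against 0.253% in the WT library. Il22 was 1 of 8 members past 2-fold higher in WT cells with neither feature, against 12.9% of 12259 genes tested, and 2 members (Il17a and Il17f) were past 2-fold lower, against 8.23%. Of the dKO values, 0 of 8 were past 2-fold higher and 5 past 2-fold lower, against 15.2% of 12978 genes each. The members' median was 0.49 in the WT and -1.33 in the dKO library, and the median over all genes -0.07 and -0.09.

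The receptors Il23r, which binds IL-23, and Il1r1, the signalling receptor for IL-1, were at low levels in every class. Il23r stood at 13.7 CPM in WT cells with contig and Cd3e and 20.97 CPM with neither, and at 12.8 and 4.70 CPM in the dKO library. Il1r1 stood at 11.7 and 15.1 CPM in the WT library and at 13.6 and 5.86 CPM in the dKO library. Cells with neither feature were thus higher than cells with both in the WT library for Il23r (log2 difference 0.61, 0.24 to 0.99) and lower in the dKO library for both receptors (-1.44 and -1.22), while the WT interval for Il1r1 included 0 (-0.06 to 0.79). Rora, a nuclear receptor used by Th17 cells and innate lymphoid cells alike, stood at 539 CPM with both features and 302 CPM with neither in the WT library, and at 346 and 110 CPM in the dKO library, a difference that was no longer seen with cluster 2 left out (0.09 and -0.05 on the log2 scale). Tmem176a and Tmem176b encode related ion channel-like proteins of dendritic cells and type 17 lymphocytes. Tmem176b stood at 64.8 and 126 CPM with both and with neither feature in the WT library and at 73.8 and 85.4 CPM in the dKO library. Tmem176a stood at 44.9 and 81.2 CPM in the WT library and at 62.6 and 54.2 CPM in the dKO library.

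**Figure D2:**
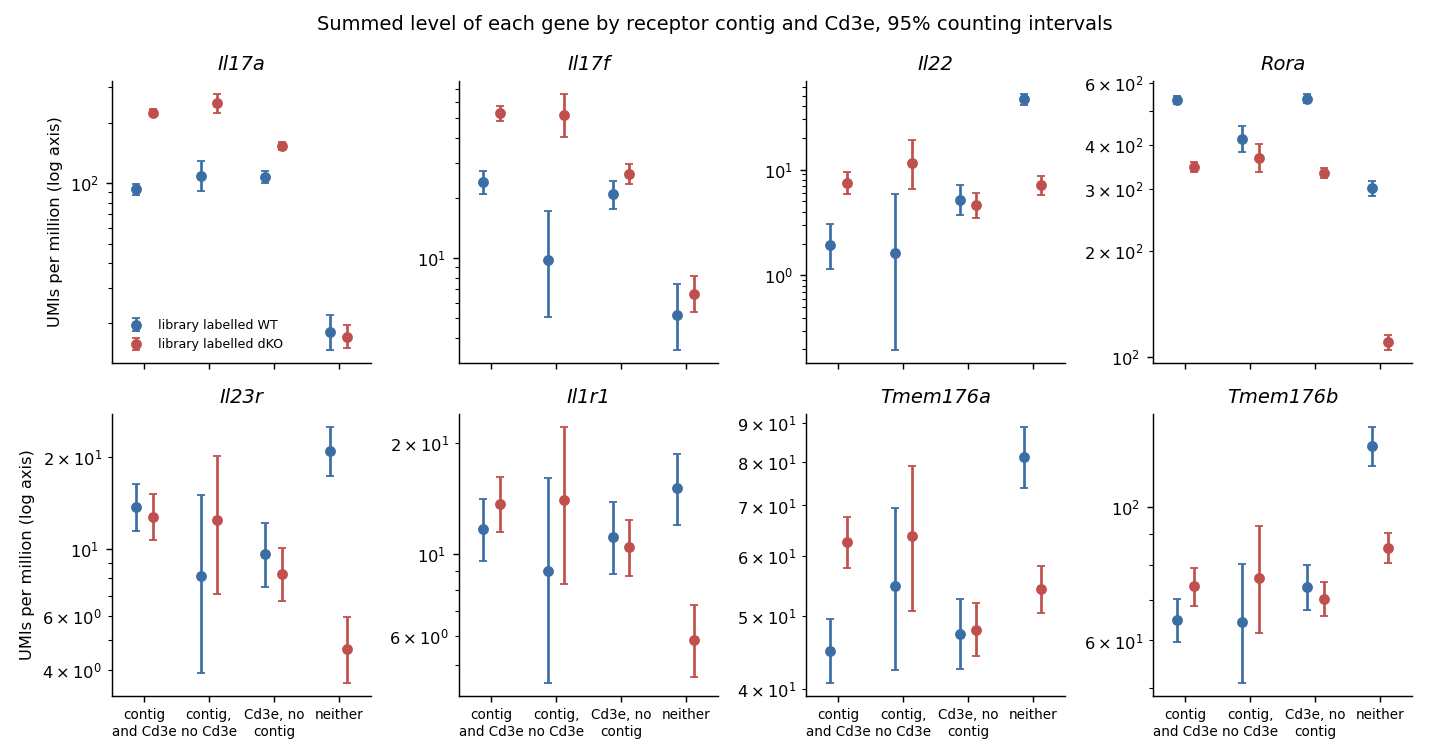
Each panel shows 1 gene, with the CPM on a log axis in the 4 classes of cells, points for the summed level in each library and bars for the 95% exact Poisson interval. Il17a and Il17f are lowest in cells with neither feature in both libraries, and Il22 in the WT library is highest there, at 45.9 CPM against 1.93 CPM in cells with contig and Cd3e.

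The class with neither feature mixed several kinds of cells, in different proportions in the 2 libraries. Cluster 2, whose leading genes Klk1, Siglech, Cox6a2, Ly6d and Tcf4 mark plasmacytoid dendritic cells, made up 1370 of 3341 such WT cells and 3303 of 5855 such dKO cells. The 7 plasmacytoid markers were all past 2-fold higher in this class than in cells with both features, summing to 8054 against 681 CPM in the WT library and 11065 against 1304 CPM in the dKO library. The members were not absent from cluster 2. Its cells held 103 of the 1042 WT and 319 of the 1449 dKO cells with a Tmem176b UMI, and 51 of 754 and 217 of 1149 with a Tmem176a UMI. In cells thinned to 1000 UMIs, Tmem176b was found in 2.71% of the dKO cells of cluster 2, between cluster 1 (1.70%) and cluster 0 (8.23%). Of the Il22 UMIs, 5 in 3 WT cells and 25 in 7 dKO cells lay in cluster 2. Its cells with neither feature had Tmem176b at 30.3 and 27.3 CPM and Tmem176a at 17.6 and 15.7 CPM in the WT and dKO libraries, Il22 had 4 UMIs in the 1370 WT cells, and Rora stood at 28.5 and 16.4 CPM. Il22 was at 0 UMIs in the 3303 dKO cells with neither feature, which allows a share of cells with a UMI of up to 0.0908% (3 counts of the total). With cluster 2 left out of both classes, a setting added after the data were seen, Il22 (5.49 and 1.70 on the log2 scale in the WT and dKO libraries), Tmem176a (1.67 and 1.26) and Tmem176b (1.80 and 1.65) were past 2-fold higher in cells with neither feature in both libraries. Il23r (1.60 and 0.25) and Il1r1 (1.27 and 0.055) were past 2-fold in the WT library only, and their dKO values changed sign. Il17a (-1.41 and -1.96) and Il17f (-1.24 and -1.23) remained lower in both libraries. Rora, at 0.09 and -0.05, was past 2-fold in neither library. The members past 2-fold higher then numbered 5 in the WT and 3 in the dKO library, where 7.66% of 11652 and 9.49% of 11860 genes were past 2-fold higher. The members past 2-fold lower numbered 2 in each library, against 5 in the dKO library with cluster 2 included, where 3.57% and 4.87% of genes were past 2-fold lower.

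Finer clustering (resolution 0.2, with the members left out of the features) set apart a small cluster of 312 cells led by Cd79a, Ebf1 and Il22. It was picked through another clustering, with the members among the features, which had formed a cluster of 182 cells led by Il22. Of those 182 cells, 172 lay in the small cluster. The members' levels in it therefore describe the cluster and are no test. Of the 312 cells, 193 had fewer than 3 UMIs of Cd79a, Cd79b, Ms4a1, Ebf1 and the immunoglobulin genes (Ighm, Ighd, the heavy chain variable genes and the light chain genes) together, markers of B cells, a split chosen after the data were seen. These 108 WT and 85 dKO cells held 255 of the 314 WT Il22 UMIs (81.2%) and 95 of the 247 dKO Il22 UMIs (38.5%). A contig was found in 10 of the 108 WT cells (9.26%) and 4 of the 85 dKO cells (4.71%), and a Cd3e UMI in 23 (21.3%) and 18 (21.2%), so that most of these cells lacked both features. The Cd3e shares lay a little above those of cluster 2 and below those of cluster 4 given above. Predicted doublets were 16 of the 108 WT cells (14.8%) and 19 of the 85 dKO cells (22.4%), against 4.25% and 5.21% of cells with neither feature and 9.44% and 14.2% of all cells. Without them, a setting added after the data were seen, Cd3e was found in 12 of 92 WT (13.04%) and 4 of 66 dKO cells (6.06%) and a contig in 5 and 2 cells, and the cells held 82.3% of the 305 WT and 42.9% of the 219 dKO Il22 UMIs left. The part of free RNA in these shares was not tested. The median depths of the 108 and 85 cells were 1557 and 1846 UMIs, against 2350 and 1823 in cells with contig and Cd3e.

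Relative to cells with contig and Cd3e, 5 members were past 2-fold higher in these cells in both libraries, and Rora also in the dKO library. Il22 stood at 1091 CPM in the WT and 502 CPM in the dKO cells and was detected in 31 of 108 (28.7%) and 12 of 85 (14.1%). Tmem176b reached 1481 and 1879 CPM and was detected in 81.5% and 88.2% of the cells, and Tmem176a reached 1048 and 1140 CPM in 73.1% and 80.0%. Il23r stood at 368 and 253 CPM, 4.75 and 4.31 on the log2 scale above cells with contig and Cd3e, and Il1r1 at 270 and 211 CPM, 4.53 and 3.95 above. Rora stood at 907 and 813 CPM, 0.75 and 1.23 above. Il17a had 0 UMIs in the 108 WT cells, which allows a share of cells with a UMI of up to 2.78%, and 6 UMIs in the 85 dKO cells (31.7 CPM, against 224 CPM in cells with contig and Cd3e). Il17f had 2 UMIs in the WT cells and 16 in the dKO cells, where it stood at 84.5 CPM against 52.8 CPM in cells with contig and Cd3e, a log2 difference of 0.68 whose interval includes 0 (-0.14 to 1.39). In all genes tested, 12.5% in the WT and 10.7% in the dKO library were past 2-fold higher in these cells and 21.6% and 29.4% past 2-fold lower, and the medians over all genes were -0.07 and -0.27.

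All 9 genes of the alpha-beta T cell list were past 2-fold lower than in cells with contig and Cd3e in both libraries, Cd3g at 193 and 190 CPM against 852 and 1079 CPM. Of the 9 genes of the ILC3 and LTi list, 7 were past 2-fold higher in each library, among them Kit (188 and 153 CPM against 1.39 and 1.78), Cxcr5 (137 and 84.5 against 5.04 and 6.13) and Lta (231 and 116 against 22.8 and 12.6). Il7r, which sustains innate lymphoid and T cells, stood at 1853 and 1288 CPM against 460 and 304 CPM. Of the 10 genes of the gamma-delta list, 5 could be tested in the WT library, with 4 past 2-fold higher and 0 lower. In the dKO library 6 could be tested, with 3 past 2-fold higher and 2 lower. Tcrg-C1 stood at 72.8 and 95.02 CPM (17 and 18 UMIs). Trdc had 1 UMI in the WT cells (4.28 CPM) and 0 in the dKO cells, where 3 UMIs would make 15.8 CPM. The dendritic cell list summed to 5131 CPM in the WT and 28955 CPM in the dKO cells, against 1055 and 2358 CPM in cells with contig and Cd3e, with Cd74 at 3774 and 21010 CPM, and the part of other cells or free RNA in these values was not tested. These genes were among those that formed the cluster, so the counts describe it and are no test, and the cells were given no cell type name.

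**Figure D3:**
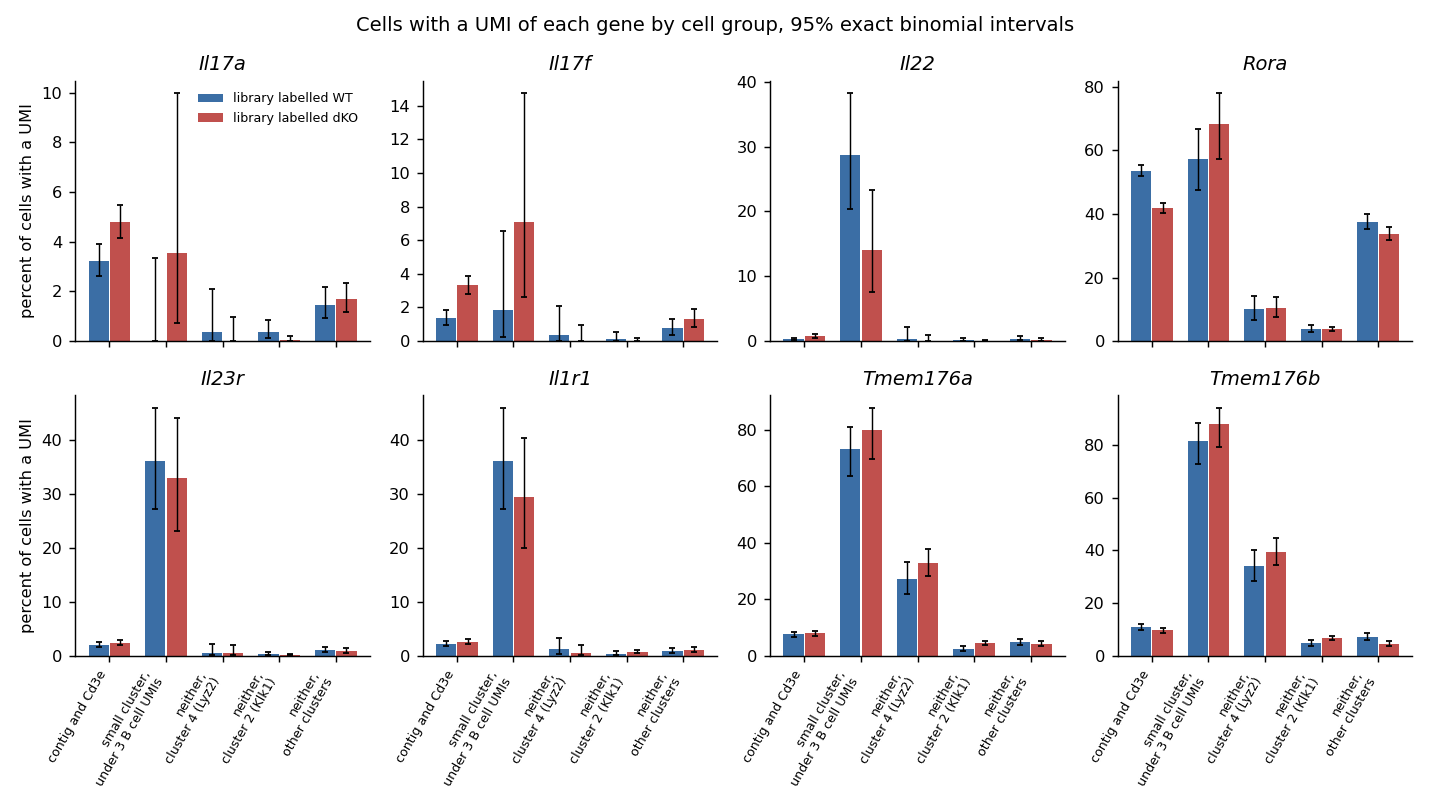
Each panel shows 1 gene, with bars for the percentage of cells holding at least 1 UMI in each group of cells and library and lines for the 95% exact binomial interval, on an axis of its own scale. In the small cluster with under 3 B cell UMIs, Il22 was found in 28.7% of WT and 14.1% of dKO cells and Tmem176b in 81.5% and 88.2%, whereas Il17a was found in 0 of 108 WT cells.

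When each cell was thinned to 1000 UMIs, Il22 was found in 27.7% of the WT and 14.3% of the dKO cells of the small cluster, Il23r in 25.3% and 19.05%, Il1r1 in 24.1% and 14.3%, and Tmem176b in 72.3% and 76.2%, with 25 WT cells and 1 dKO cell left out as shallower. Between the libraries, Il22 was lower in the dKO cells of this group by 1.12 on the log2 scale (interval -1.48 to -0.78). This rests on 255 UMIs in 31 WT cells and 95 UMIs in 12 dKO cells. The intervals of the thinned shares of cells with Il22, 18.4 to 38.6% and 7.61 to 23.6%, overlapped. The interval for Il1r1 included 0 (-0.96 to 0.24), as did those for Rora (-0.47 to 0.15) and Tmem176a (-0.15 to 0.39), and Il23r differed by -0.54 (-1.08 to -0.01). Tmem176b was higher in the dKO cells by 0.34 (0.13 to 0.56), and Il17f (16 against 2 UMIs) and Il17a (6 against 0) also had more UMIs there. The content of the group moved with the library too, since the dendritic cell list was at 5131 CPM in the WT and 28955 CPM in the dKO cells, and its part in these differences was not tested. Of all 3579 genes tested in this group, 7.32% were past 2-fold lower and 4.0% past 2-fold higher.

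Without the small cluster, added after the data were seen, the class with neither feature lost most of its Il22. The log2 difference from cells with contig and Cd3e became 1.57 in the WT and -3.37 in the dKO library. Il23r then stood lower in the class with neither feature in both libraries (-1.21 and -2.64), as did Il1r1 (-0.68 and -1.85). The share of Il22 cells with a contig became 43.5% (10 of 23) in the WT library.

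Each of the other 7 members was found more often in Il17a cells with a contig and Cd3e than in other cells of that class. In the WT library 36 of 102 such cells had an Il17f UMI (35.3%, 26.1 to 45.4%), against 0.229% of the 3061 cells without Il17a. Among dKO cells, 117 of 198 had Il17f (59.1%, 51.9 to 66.0%), against 0.507% of 3945. Il23r was found in 30.4% of the WT and 22.2% of the dKO Il17a cells, against 1.05% and 1.29% of the others, and Il1r1 in 36.3% and 27.8%, against 1.05% and 1.29%. Tmem176b was found in 59.8% and 67.7%, against 9.25% and 6.62%, and Tmem176a in 51.0% and 60.6%, against 6.01% and 5.22%. Rora was found in 80.4% and 82.8%, against 52.8% and 39.7%, a smaller contrast from a widely detected gene. Il22 was found in 4 of 102 WT Il17a cells (3.92%) and 20 of 198 dKO Il17a cells (10.1%), against 0.131% and 0.279%.

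**Figure D4:**
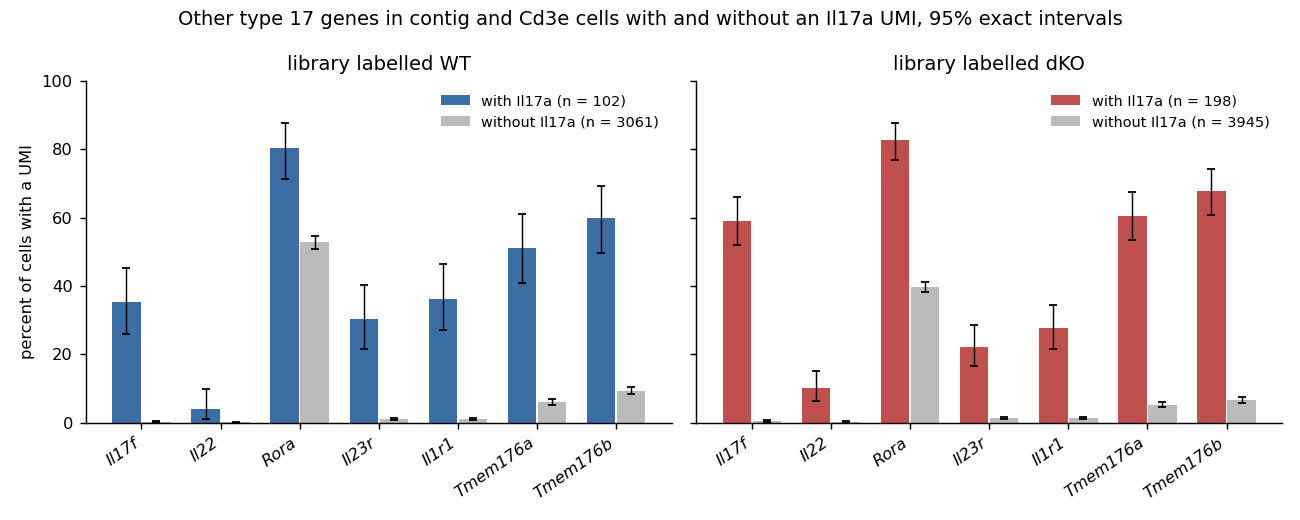
Bars show, for cells with contig and Cd3e, the percentage of cells with a UMI of each other gene among cells with and without an Il17a UMI, in a panel for each library, with lines for the 95% exact binomial interval. Il17f was found in 35.3% of WT and 59.1% of dKO Il17a cells, and Tmem176b in 59.8% and 67.7%.

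The Il17a cells were deeper, with medians of 3237 against 2336 UMIs in the WT and 2750.5 against 1782 UMIs in the dKO library. Thinned to 1000 UMIs per cell, Il17f was still found in 22.8% of WT Il17a cells and 43.8% of dKO Il17a cells, and Tmem176b in 27.7% and 39.2%. Of the 35 WT Il22 cells with neither feature, 28 had Tmem176b (80.0%), 16 had Il23r (45.7%) and 1 had Il17a (2.86%). Among 13 dKO Il22 cells with neither feature, 11 had Tmem176b, 6 had Il23r and 2 had Il17a. Of the Il22 cells with contig and Cd3e, 4 of 8 in the WT library and 20 of 31 in the dKO library (64.5%, 45.4 to 80.8%) had Il17a.

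Invariant receptors were rare, and no Il17a UMI was found with them. None of the 57 WT and 61 dKO cells with the iNKT alpha chain (Trav11 with Traj18) had an Il17a UMI, which allows shares of cells with a UMI of up to 5.26% and 4.92%. Tmem176b was found in 15 of 57 (26.3%) and 17 of 61 (27.9%) of these cells.

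Il17 cells were grouped by clone, defined by the same TRB V and J segments and CDR3 nucleotides. Among clones of at least 3 cells, 23 of 155 in the WT and 34 of 224 in the dKO library held a cell with Il17a or Il17f. At least 50% of the cells were positive in 4 WT clones, where 16 of 19 cells were positive, and in 13 dKO clones, where 61 of 72 were. The CDR3 sequences of 4 such clones are printed because nearly all of their cells carried the cytokines.
WT TRBV5 TRBJ2-3: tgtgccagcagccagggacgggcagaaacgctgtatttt
dKO TRBV3 TRBJ1-1: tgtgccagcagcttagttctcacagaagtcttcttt
dKO TRBV13-1 TRBJ2-3: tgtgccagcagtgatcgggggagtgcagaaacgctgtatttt
dKO TRBV5 TRBJ1-4: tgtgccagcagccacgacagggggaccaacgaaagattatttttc
The first was positive in 8 of 9 cells, each of the next pair in 7 of 7 and the last in 6 of 6. The cells with an alpha chain shared the commonest one in 3 of 4, 5 of 5 and 4 of 4 cells of the first, second and last of these, whereas the 3 such cells of the TRBV13-1 TRBJ2-3 group each had another. Of its 7 cells, 3 had Foxp3, the regulator of regulatory T cells. A smaller WT group with TRBV13-3 and TRBJ2-7 was positive in 3 of 3 cells, which shared 1 alpha chain and all had Foxp3. The largest dKO clone had 4 positive cells among 475, of which 180 had Foxp3. In cells with contig and Cd3e, Foxp3 was found in 12.8% of WT Il17a or Il17f cells against 7.11% of the others, and in 17.4% against 32.6% in the dKO library. Ifng, the Th1 cytokine, was found in 22.9% against 27.0% in the WT and in 2.75% against 8.69% in the dKO library.

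Between the libraries, the 3 cytokines were higher in dKO than in WT cells with contig and Cd3e, and the other 5 members were not past 2-fold. Il17a stood at 224 against 92.9 CPM (log2 difference 1.27, 1.15 to 1.38), Il17f at 52.8 against 23.9 CPM (1.14, 0.92 to 1.38) and Il22 at 7.52 against 1.93 CPM (1.96, 1.21 to 2.79, from 76 and 18 UMIs). Past 2-fold higher lay 5.89% of 12479 genes and past 2-fold lower 5.44%, with a median over all genes of -0.02. Rora was lower in the dKO cells, at 346 against 539 CPM (-0.64, -0.70 to -0.58). The differences for Il23r (-0.10, -0.47 to 0.26) and Il1r1 (0.22, -0.15 to 0.60) had intervals that include 0. Tmem176a (0.48) and Tmem176b (0.19) were slightly higher. Thinned to 1000 UMIs, Il17a was found in 2.20% of WT and 4.08% of dKO cells of this class, with 116 and 421 shallower cells left out.

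In cells with a contig but no Cd3e, Il17a differed by 1.20 and Il17f by 2.41, where 5.12% of 8676 genes were past 2-fold higher and 3.26% past 2-fold lower. Il22 had 15 UMIs in the dKO and 2 in the WT cells of this class, too few to enter that set of genes. In cells with Cd3e but no contig, Il17a differed by 0.51 and Il17f by 0.34, neither past 2-fold, and the interval for Il22 included 0 (-0.17, -0.79 to 0.46), where 7.06% of genes were past 2-fold higher and 5.78% lower. In cells with neither feature the interval for Il17a included 0 (-0.07, -0.41 to 0.28). In that last class Il22 was lower in the dKO library by 2.70 on the log2 scale, Il23r by 2.16, Il1r1 by 1.36 and Rora by 1.45, where 7.16% of 12557 genes were past 2-fold lower and 3.19% higher, and cluster 2 made up a larger part of the dKO class. The make-up of cells with contig and Cd3e also differed, since cluster 1 (led by Penk, Tnfrsf9 and Foxp3) held 198 of 3163 WT but 1830 of 4143 dKO cells. Within cluster 0 alone (led by Ifng, Fasl and Klrk1), added after the data were seen, 1927 WT and 1446 dKO cells had contig and Cd3e. There Il17a had 543 WT and 1281 dKO UMIs, a difference of 1.99 on the log2 scale (1.84 to 2.13), and Il17f 157 and 303 UMIs, a difference of 1.70 (1.41 to 1.98). Il22 rested on 6 UMIs in 4 WT cells and 37 UMIs in 15 dKO cells, and its difference of 3.37 had an interval of 2.11 to 4.91. Tmem176a differed by 1.03 (0.78 to 1.28), Tmem176b by 0.78, Il1r1 by 0.77, Il23r by 0.59 and Rora by -0.68. The members past 2-fold higher thus numbered 4 and those past 2-fold lower 0, where 2.86% of 10470 genes were past 2-fold higher and 4.24% past 2-fold lower.

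**Figure D5:**
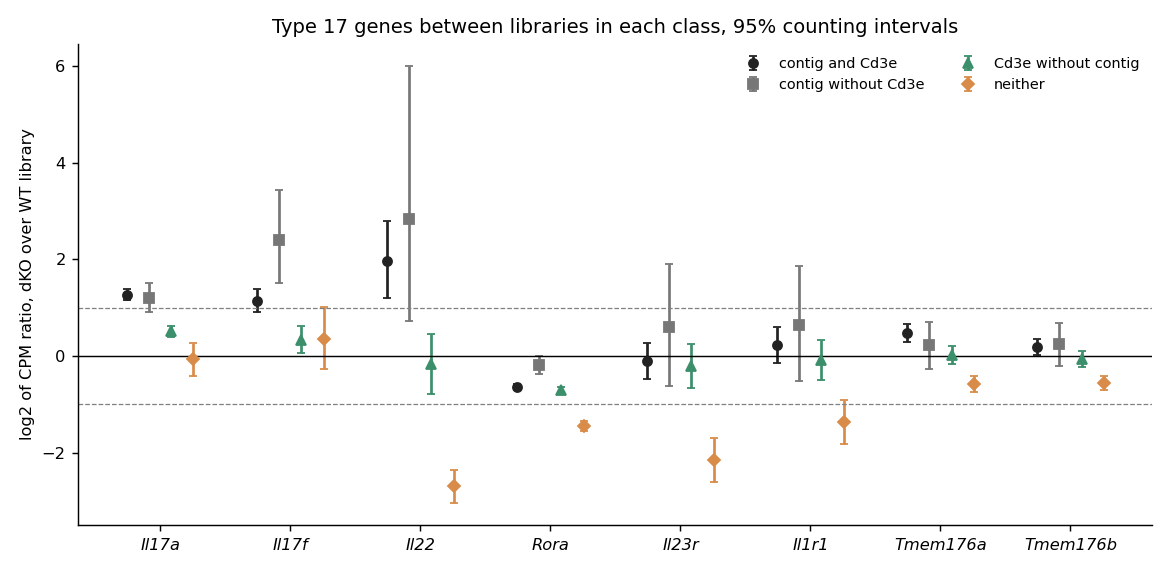
Points show the log2 ratio of the summed level in the dKO library over that in the WT library for each gene in each of the 4 classes of cells, with lines for the 95% counting interval and dashed lines at a 2-fold difference. In cells with contig and Cd3e the 3 cytokines lie above 1, at 1.27, 1.14 and 1.96, and in cells with neither feature Il22 lies at -2.70. The Il22 point for cells with a contig but no Cd3e rests on 15 and 2 UMIs.

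By cluster, Il17a was highest in cluster 0 and in cluster 5, led by the cell division genes Pclaf and Mki67. It stood at 115 and 379 CPM in cluster 0 and at 161 and 290 CPM in cluster 5 in the WT and dKO libraries. In cluster 5, 4.94% and 12.5% of cells had a UMI, at unlike median depths of 2621 and 4661 UMIs. In cluster 6 of the dKO library, 46 Il17a UMIs came from 1 cell. Rora was highest in cluster 6 (2383 and 1281 CPM), whose cells had 3.95% ribosomal protein UMIs and Malat1 at 16312 CPM. Tmem176a (274 and 272 CPM) and Tmem176b (397 and 433 CPM) were highest in cluster 4, led by the myeloid genes Lyz2 and S100a9, which also held the small cluster.

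Other genes of the type 17 program were read from a list of 25, of which 23 could be tested in the class contrasts. In WT cells with neither feature 1 was past 2-fold higher than in cells with both, Tgfbr1 (1.54), and 3 were lower, Maf (-1.35), Il21 (2 against 28 UMIs) and Il12rb1 (-1.65), with a list median of -0.27, where 12.9% of all genes were past 2-fold higher and 8.23% lower. In the dKO library 1 was higher, again Tgfbr1 (1.68), and 8 were lower, among them Maf (-2.13), Ccr6 (-1.39), Il12rb1 (-2.05) and Il18r1 (-1.65), with a median of -0.70, where 15.2% of genes were past 2-fold in each direction. Between the libraries in cells with contig and Cd3e, 2 were past 2-fold higher, among them Maf (1.05), a transcription factor of Th17 and other T cells, and 2 lower, the cytokine Csf2 (-2.12) and the IL-6 receptor Il6ra (-1.67), with a median of 0.19, against 5.89% of genes higher and 5.44% lower. Stat3, which relays IL-6 and IL-23, differed by 0.61, Ahr, a sensor of aromatic ligands, by -0.54 and Ccr6, a homing receptor of type 17 cells, by 0.19.

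Across 14 profiles of cluster and library, over 10462 genes, each member was compared with all others by Pearson's correlation of log2(CPM + 1), as a description of profiles that share libraries and depth. Il17a was most like Grb7 (0.91), Gzmk (0.90), Nkg7 (0.89) and Il17f (0.88). Il22 was most like Ifitm3 (0.92) and Tmem176b (0.91), and its coefficient with Il17a was 0.24. The profiles of cluster 4 joined myeloid cells with 311 of the 312 cells of the small cluster. A high coefficient therefore does not place genes in the same cells. Among the 5 genes most like Il23r were Cysltr1 (0.95), Il1r1 (0.93) and Ccr6 (0.92), Rora was most like Ptpn13, Rnf43 and Klf12 (each 0.98), and Tmem176a was most like Tmem176b (0.98).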

How the data were processed

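Gene counts per cell (unique molecular identifiers) and receptor contigs were used as deposited. Per the file headers the authors made the counts with Cell Ranger 7.0.1, and the submitters' processing notes name mm10. Cells with over 200 genes and under 5% mitochondrial counts were kept. A contig was any productive TRA or TRB chain. Counts were summed per class and given as CPM, with exact Poisson or Clopper-Pearson intervals (95%). A count of 0 is given with the share that 3 cells would make. Ratios are log2 of CPM ratios with conditional binomial intervals, and shares of genes past 2-fold are over genes with at least 20 UMIs. No test was made, since each group was 1 library. Clusters came from Seurat 5.3.0 (R 4.3.3) at resolution 0.1 with the members left out of the features, and predicted doublets (highest Scrublet scores or at least 2 TRB chains, 997 and 2487 cells) were kept in the values reported and removed in an alternative. The ratio script was tested on simulated data. The members and lists were chosen with earlier results of these data known. Named genes were the members, the type 17 list and, per member, up to 5 genes of highest correlation. The alternatives covered cell filter, doublets, contig and CD3 definitions, scaling (edgeR 4.0.16 TMM), clonotypes, thinning and clustering. Some genes of the lists are not reported here by name. Protein sequences were not analysed here.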

Additional observations from a re-analysis of the deposited data

Results flagged for a closer look

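For 4 genes the log2 difference between cells with neither contig nor Cd3e and cells with both had opposite signs in the 2 libraries. For Il22 it was 4.57 (3.88 to 5.35) in the WT and -0.08 (-0.53 to 0.37) in the dKO library, a gap of -4.66. The dKO interval includes 0, and the dKO sign was kept in 5 of the 9 settings planned at the start. The gap was -1.59 for Il1r1, whose WT interval includes 0 (-0.06 to 0.79). It was -2.05 for Il23r (0.61 and -1.44) and -1.06 for Tmem176a (0.86 and -0.21), with intervals that exclude 0 in both libraries. With 1 library per genotype the difference between libraries was not tested. Cluster 2 made up 1370 of 3341 WT and 3303 of 5855 dKO cells of the class with neither feature. With it left out, the values in the WT and dKO libraries had the same sign for all 4 genes, 5.49 and 1.70 for Il22, 1.60 and 0.25 for Il23r, 1.27 and 0.055 for Il1r1, and 1.67 and 1.26 for Tmem176a, and the Il22 values still lay far apart. Without the small cluster instead, Il22 was at 1.57 and -3.37 and Tmem176a at 0.28 and -0.52, with signs still opposite, while Il23r (-1.21 and -2.64) and Il1r1 (-0.68 and -1.85) had the same sign. Both settings were chosen after the data were seen, and no cause of the gaps was tested.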

How the results depend on the processing

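No paired analysis was possible because each genotype was 1 library and no test was made. The number of members past 2-fold higher in WT cells with neither feature was 1, where 12.9% of all genes were past 2-fold higher. It became 2 when both TRA and TRB were needed (13.3% of genes) or 1 cell was taken per clonotype (12.95%), 3 with any of Cd3d, Cd3e or Cd3g (14.9%) or with the mean of each cell's CPM (12.3%), and 5 with cluster 2 left out (7.66%). In the dKO library it was 0 (15.2%), and 3 with cluster 2 left out (9.49%), where Il23r (0.25) and Il1r1 (0.055) changed sign. The 5 members past 2-fold lower in the dKO library (15.2% of genes) became 2 with the mean of each cell's CPM (8.82%), where Rora (-0.71), Il23r (-0.70) and Il1r1 (-0.93) were no longer past 2-fold, and 2 with cluster 2 left out (4.87%), where Rora stood at -0.05. Leaving out cells with only TRA or only TRB gave shares of Il17a cells with a contig of 38.5% (WT) and 37.6% (dKO). Thinning cells to 2000 UMIs gave 63.3% and 61.3%. The share of Il22 cells with a contig in the WT library became 43.5% without the small cluster. The settings that left out clusters were chosen after the data were seen. Il17a (1.15 to 1.65), Il17f (1.05 to 1.65) and Il22 (1.47 to 2.11) stayed past 2-fold higher in the dKO cells with contig and Cd3e in 9 of 9 settings planned at the start, and the cause of the other shifts was not tested. Low counts limit Il22 in WT T cells (18 UMIs).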
